A study of Arabidopsis thaliana with 6 samples.

Results

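Cytosolic ribosomal proteins form the ribosome that translates nuclear mRNAs, and the 60 genes described here code for 27 of them in *Arabidopsis thaliana*. The genes were chosen by locus identifier from the families of cytosolic ribosomal proteins, with several paralogs for most proteins, and are 60 of the 64621 annotated genes and transposable elements that the deposited values cover. Of the 60, 26 code for proteins of the small subunit (RPS names) and 34 for proteins of the large subunit (RPL and RPP names). For 24 of the 27 proteins, 2 or 3 paralogs are among the 60.

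Polyadenylated RNA of 14-d-old Col-0 seedlings was sequenced from WT, from *nerd-1* (the mutant), which carries a mutation of the NERD gene, and from *nerd-1*+T (the complemented line), which is *nerd-1* expressing a flag-tagged NERD. Each genotype had 2 replicates, giving 6 libraries, and the labels do not say whether the replicates were separate cultures, so that *p*-values measure the spread between these libraries, which may be technical. The promoter of the transgene and the number of lines behind it are not given in the sources used here. The values are FPKM (fragments per kilobase of transcript, scaled to the mapped fragments of the library), so levels can be compared between genes. The number of reads behind a value is not given, and the study states the reads per library only as a range. NERD itself (AT2G16485) was at 14.1 and 13.9 FPKM in WT, against 7.59 and 7.45 in the mutant and 63.7 and 63.5 in the complemented line, lowest in the mutant and highest in the complemented line.

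A ribosome holds 1 copy of nearly every ribosomal protein, the exception being the acidic P proteins of the lateral stalk, which are present in several copies and recruit the GTPases of translation. In plants almost every ribosomal protein is encoded by a small family of genes whose products are close to identical, and mutants of single members often have pointed or narrow leaves. Levels of ribosomal protein mRNAs are high in growing tissue, where 2 short promoter elements are known from this gene class: site II elements, bound by TCP transcription factors, and the telo box.

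Of the 60 genes, 44 (73.3%) had at least 1 site II element (TGGGCC or TGGGCT, either strand) in the 250 bases before the annotated gene start, against 19.2% of 27443 protein-coding genes. The telo box (AAACCCTA, either strand) was found before 10 of the 60 genes (16.7%), against 4.49% of all. Neither motif contains the other, and a match is a description of the sequence, not a binding site. The 150 bases directly before the start of 5 genes are shown because these genes are among those that rose or fell most in *nerd-1*. They are from RefSeq (TAIR10.1 genome), 5′ to 3′ on the strand of the gene, with capitals where either motif matches on either strand.
RPP1, AT1G01100 (chr1:51211-51360, minus strand): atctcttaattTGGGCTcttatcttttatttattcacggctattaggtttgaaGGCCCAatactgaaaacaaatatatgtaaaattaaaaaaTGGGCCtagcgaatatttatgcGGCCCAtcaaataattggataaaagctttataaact
RPS9, AT5G15200 (chr5:4936430-4936579, minus strand): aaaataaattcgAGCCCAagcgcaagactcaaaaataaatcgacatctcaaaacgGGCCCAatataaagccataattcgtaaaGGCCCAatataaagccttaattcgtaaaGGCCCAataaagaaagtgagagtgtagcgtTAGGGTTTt
RPS10, AT5G41520 (chr5:16610693-16610842, minus strand): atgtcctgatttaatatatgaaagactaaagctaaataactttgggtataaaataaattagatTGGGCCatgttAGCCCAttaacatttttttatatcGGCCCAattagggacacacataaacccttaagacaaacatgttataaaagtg
RPL23a, AT3G55280 (chr3:20500084-20500233, plus strand): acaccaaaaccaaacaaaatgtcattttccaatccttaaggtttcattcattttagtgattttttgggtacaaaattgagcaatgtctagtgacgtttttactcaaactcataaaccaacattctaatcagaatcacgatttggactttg
RPL23a, AT2G39460 (chr2:16473999-16474148, plus strand): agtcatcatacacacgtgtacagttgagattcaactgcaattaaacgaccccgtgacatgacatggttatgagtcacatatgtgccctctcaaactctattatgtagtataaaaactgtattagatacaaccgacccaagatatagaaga

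The first 3 of these genes, which rose in *nerd-1*, have 4, 4 and 3 site II matches, and the one of RPS9 also has a telo box. Both RPL23a genes have no match of either kind. Over all tested members, 9 of the 10 genes that rose in *nerd-1* and 12 of the 17 that fell have a site II match, beside 22 of the 32 that were not called.

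Most of the 60 genes had high mRNA levels. Over the 6 libraries, 53 genes had a mean of at least 50 FPKM, the lowest of these being 67.6 FPKM. RPL23a AT2G39460 and RPL3 AT1G43170 were among the 3 highest. RPL3 AT1G43170, whose product lies close to the peptidyl transferase centre, had 355 and 340.0 FPKM in WT, against 374 and 373 in the mutant and 391 and 331 in the complemented line, with overlapping ranges of WT and *nerd-1*+T.

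The other 7 genes were minor paralogs with means of at most 25.0 FPKM. The lowest was RPL8 AT3G51190, listed at 0 in the 4 libraries of WT and *nerd-1*+T and at 0.0259 and 0.0797 FPKM in *nerd-1*, and it was the only member under the filter of at least 1 FPKM in at least 2 libraries, which left 59 to be tested. RPP0 AT2G40010, a minor copy of the protein that anchors the stalk, had 5.13 and 5.49 FPKM in WT, against 5.74 and 5.5 in the mutant and 4.71 and 4.32 in the complemented line.

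Summed over the 60 genes, the level was 11988 and 11635 FPKM in WT, against 11403 and 11491 in the mutant and 10859 and 10079 in the complemented line. As a percentage of all FPKM these sums were 1.39 and 1.35% in WT, against 1.2 and 1.19% in the mutant and 1.27 and 1.19% in the complemented line. The sum was thus lower in each library of both other genotypes than in either WT library. The order depends on the scale: with each library divided by its median factor, the sums were 11248 and 10898 in WT, against 11553 and 11593 in the mutant and 11480.2 and 10559.9 in the complemented line, so that *nerd-1* was then above WT.

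**Figure D1:**
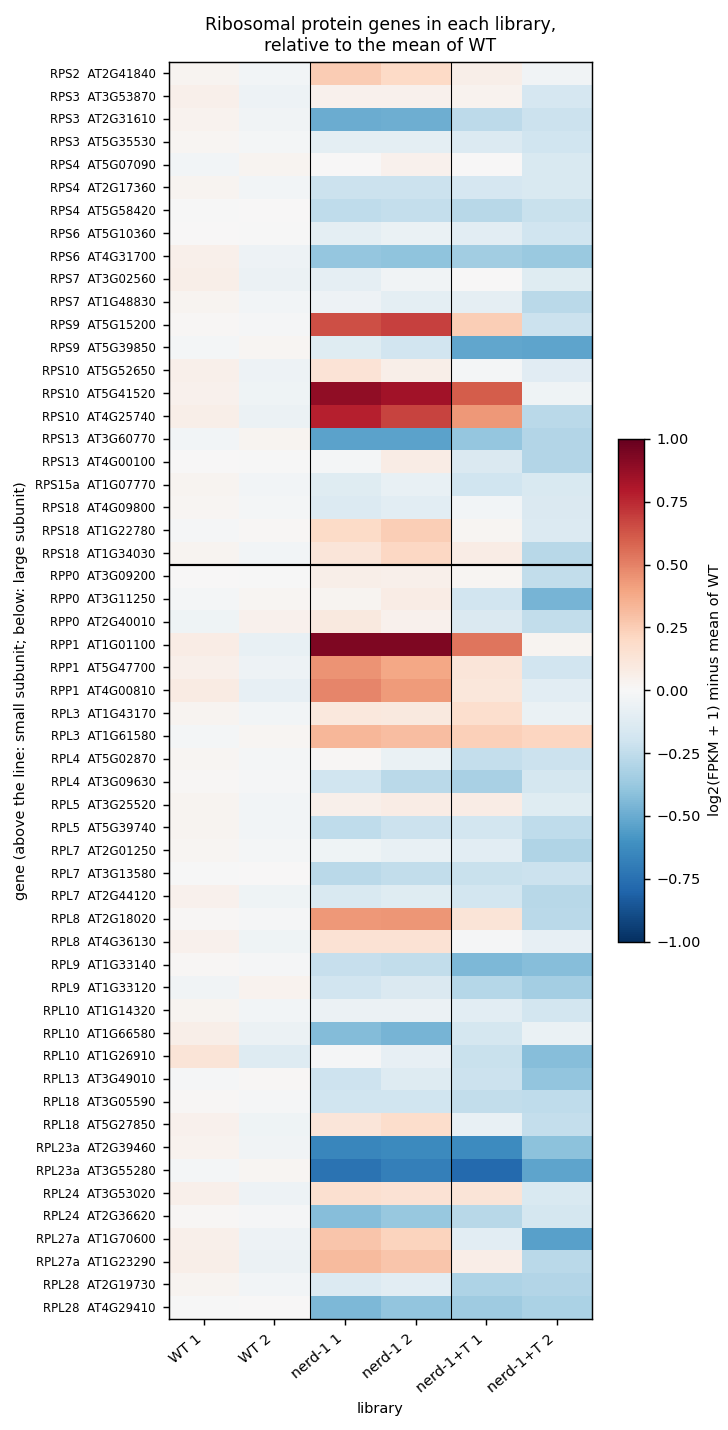
Heat map of 55 of the 59 tested ribosomal protein genes (vertical axis, by protein and locus) in the 6 libraries (horizontal axis), coloured by log2(FPKM + 1) minus the mean of WT. The 3 RPP1 genes, 2 RPS10 genes and RPS9 AT5G15200 are red in both *nerd-1* libraries, both RPL23a genes are blue in *nerd-1* and *nerd-1*+T, and *nerd-1*+T replicate 1 is redder than replicate 2 in most of the genes that are red in *nerd-1*.

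The comparison of *nerd-1* with WT asks how the levels of these mRNAs stand when NERD is mutated. The genes did not move as a block: 10 of the 59 rose and 17 fell, while 32 were not called (limma on log2(FPKM + 1), adjusted *p* under 0.05 over all 20249 tested features). Of all tested features, 19.4% were higher and 36.3% lower in *nerd-1*, so the shares of members called were near those of the transcriptome. The median log2 change of the members was -0.059, beside -0.11 for all tested features. Of the 59, 50 lay within 0.5 log2 units of the latter median, beside 75.6% of all tested features. In the small subunit 5 genes rose and 6 fell of 26 (2 and 13 under total scaling, 7 and 5 under median scaling), and in the large subunit 5 rose and 11 fell of 33 (3 and 17, and 8 and 7).

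The balance of rises and falls depended on how the libraries were scaled. Scaled to the same FPKM total, 5 members rose and 30 fell, beside 13% and 51% of all features. Scaled to the same median, 15 rose and 12 fell, beside 26.1% and 26.4%. The median change of all features moved from -0.11 to -0.24 with the first scaling and to -0.010 with the second. Among the 10 genes that rose, AT1G01100, AT4G00810, AT1G61580, AT5G41520 and AT5G15200 rose under both scalings, and none of the 10 changed direction. All 17 genes that fell kept that call under total scaling and 12 of them did so under median scaling, and none changed direction.

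The counts also depended on single libraries. The fit pools the spread over genotypes, and *nerd-1*+T had the widest spread. The median SD between replicates over the 59 genes was 0.040 for WT and 0.027 for *nerd-1*, but 0.11 for *nerd-1*+T, on the log2 scale. Without WT replicate 1 the test called 3 higher and 9 lower, without WT replicate 2 it called 2 and 9, without *nerd-1* replicate 1 it called 2 and 8, and without *nerd-1* replicate 2 it called 2 and 9. Of all features, 11.3% were higher and 21.3% lower in the first of these fits, 11.5% and 20.5% in the second, 10.1% and 19.2% in the third and 9.89% and 19.8% in the last, so fewer calls were made across the transcriptome as well. Without *nerd-1*+T replicate 1 or 2 it called 18 higher and 24 lower, beside 24.9% higher and 42.6 to 42.7% lower of all features. RPP1 AT1G01100 and RPL3 AT1G61580 kept their rise in each of these 6 fits. The falls of AT3G55280, AT2G39460, AT3G60770, AT2G31610, AT1G66580, AT2G36620, AT4G31700 and AT4G29410 were also called in each of them, and every gene called in the full fit kept its direction in them.

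The largest rise was in the RPP1 genes, which code for the acidic stalk protein P1. AT1G01100 (chromosome 1, 49909 to 51210 in TAIR10.1) had 132 and 118 FPKM in WT, against 239.9 and 239 in the mutant and 181 and 127 in the complemented line. Both *nerd-1* libraries were far above the others, *nerd-1*+T replicate 1 lay between the genotypes, and replicate 2 lay within the range of WT. The log2 change in *nerd-1* was 0.93 ± 0.17 (SE; adjusted *p* = 0.00704).

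The other RPP1 genes rose less. AT4G00810 had 64.2 and 56.9 FPKM in WT, against 85.0 and 81.5 in the mutant and 65.4 and 55.9 in the complemented line, a log2 change of 0.46 ± 0.10 (SE; adjusted *p* = 0.012). AT5G47700 had 76.9 and 71.3 FPKM in WT, against 101 and 97.0 in the mutant and 80.8 and 64.8 in the complemented line, a log2 change of 0.42 ± 0.11 (SE; adjusted *p* = 0.0244), a call that was lost when libraries were scaled to the same total. In each of these genes both *nerd-1* libraries exceeded the other 4. The RPP0 genes, whose product carries the stalk, were not called: the main copy AT3G09200 had 257 and 255 FPKM in WT, against 266 and 264 in the mutant and 259 and 216 in the complemented line.

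RPS10, a protein of the head of the small subunit, had 3 paralogs of which 2 rose. AT5G41520 had 90.6 and 85.4 FPKM in WT, against 163 and 158 in the mutant and 134 and 85.5 in the complemented line, a log2 change in *nerd-1* of 0.86 ± 0.20 (SE; adjusted *p* = 0.0168). AT4G25740 had 67.4 and 62.2 FPKM in WT, against 111 and 104 in the mutant and 87.8 and 53.5 in the complemented line, a change of 0.72 ± 0.22 (SE; adjusted *p* = 0.0386), which was not called after scaling to the same total. The third paralog, AT5G52650, had 126 and 118 FPKM in WT, against 134 and 127 in the mutant and 120.4 and 113 in the complemented line, so its *nerd-1* libraries stood just above those of WT, with a change of 0.10 ± 0.062 (SE; adjusted *p* = 0.233) that turned to -0.053 under total scaling. The first 2 genes also had the widest gap between the *nerd-1*+T libraries, replicate 1 lying towards *nerd-1* and replicate 2 at or below WT.

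RPS9, which binds ribosomal RNA early in assembly and lies at the mRNA entry, was nearly all from AT5G15200. This gene had 286 and 280.1 FPKM in WT, against 443 and 454 in the mutant and 337 and 244 in the complemented line, a log2 change in *nerd-1* of 0.66 ± 0.15 (SE; adjusted *p* = 0.0149). The minor paralog AT5G39850 did not share the rise. It had 11.2 and 11.5 FPKM in WT, against 10.4 and 9.8 in the mutant and 7.63 and 7.56 in the complemented line, a change of -0.16 ± 0.053 (SE; adjusted *p* = 0.054).

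**Figure D2:**
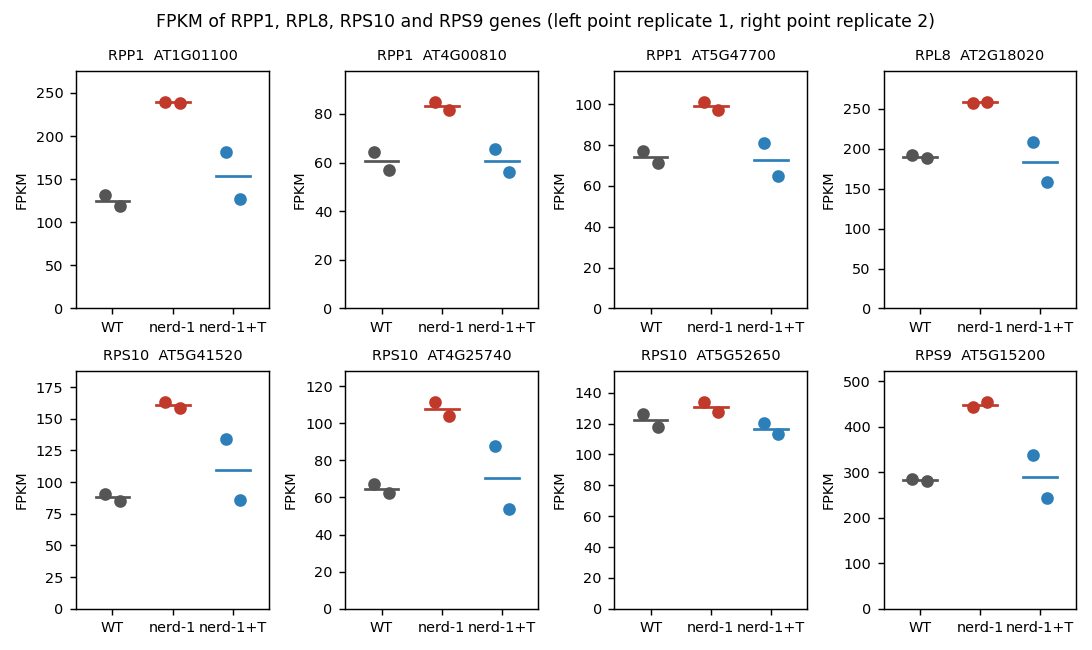
FPKM (vertical axes, from 0) of the 3 RPP1 genes, RPL8 AT2G18020, the 3 RPS10 genes and RPS9 AT5G15200 in WT, *nerd-1* and *nerd-1*+T; points are libraries and bars are means of 2. Both *nerd-1* points are above all others in each panel, by the least in RPS10 AT5G52650. The *nerd-1*+T points are wide apart in most panels, but about as far apart as the WT points in RPP1 AT4G00810 and RPS10 AT5G52650.

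The remaining genes that rose in *nerd-1* changed by less than 0.5 log2 units. RPL8 AT2G18020, whose product is part of the peptidyl transferase region, had 192 and 188 FPKM in WT, against 257 and 259 in the mutant and 208 and 158 in the complemented line, a change of 0.44 ± 0.13 (SE; adjusted *p* = 0.0332). RPL3 AT1G61580, the minor RPL3 copy, had 14.9 and 15.3 FPKM in WT, against 19.3 and 19.0 in the mutant and 18.0 and 17.7 in the complemented line, a change of 0.32 ± 0.046 (SE; adjusted *p* = 0.00381). In that gene *nerd-1* and *nerd-1*+T were above WT and their libraries lay close together.

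RPS2 AT2G41840, a protein of the mRNA entry region, had 219.6 and 211 FPKM in WT, against 256 and 247 in the mutant and 225 and 209.6 in the complemented line, a change of 0.22 ± 0.058 (SE; adjusted *p* = 0.0235). RPS18 AT1G22780, known as POINTED FIRST LEAF, had 124 and 126 FPKM in WT, against 143 and 149 in the mutant and 127 and 114 in the complemented line, a change of 0.22 ± 0.066 (SE; adjusted *p* = 0.036). RPL8 AT2G18020, RPS2 AT2G41840 and RPS18 AT1G22780 were not called after scaling to the same total.

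The largest falls were in RPL23a, a protein at the exit of the peptide tunnel. AT3G55280 (chromosome 3, 20500234 to 20501738) had 197 and 204 FPKM in WT, against 119.6 and 125 in the mutant and 116 and 138 in the complemented line, a log2 change in *nerd-1* of -0.71 ± 0.090 (SE; adjusted *p* = 0.00276). AT2G39460 had 592 and 566 FPKM in WT, against 368 and 372 in the mutant and 373 and 434 in the complemented line, a change of -0.64 ± 0.084 (SE; adjusted *p* = 0.00301). For both genes the 4 libraries of *nerd-1* and *nerd-1*+T lay below those of WT. Both falls were called under each scaling and without any single library.

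Of the members of the small subunit, RPS13 AT3G60770 and RPS3 AT2G31610 fell most. RPS13 AT3G60770, from the subunit interface, had 309.6 and 321 FPKM in WT, against 218 and 217 in the mutant and 241 and 257 in the complemented line, a change of -0.53 ± 0.054 (SE; adjusted *p* = 0.00162). Its paralog AT4G00100 had 238 and 235 FPKM in WT, against 234 and 249 in the mutant and 214 and 193 in the complemented line, a change of 0.028 ± 0.069 (SE; adjusted *p* = 0.746), which turned to -0.12 under total scaling. RPS3 AT2G31610, from the mRNA entry site, had 211 and 199.7 FPKM in WT, against 145 and 146 in the mutant and 171 and 177 in the complemented line, a change of -0.49 ± 0.051 (SE; adjusted *p* = 0.00167). In both genes that fell, *nerd-1* was lowest and *nerd-1*+T lay between *nerd-1* and WT.

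In the large subunit RPL10 AT1G66580, a late-joining protein needed for subunits to pair, had 263 and 243 FPKM in WT, against 187 and 183 in the mutant and 224 and 242 in the complemented line, a change of -0.45 ± 0.066 (SE; adjusted *p* = 0.00406). RPL24 AT2G36620 had 173 and 171 FPKM in WT, against 128 and 132 in the mutant and 142 and 152 in the complemented line, a change of -0.40 ± 0.054 (SE; adjusted *p* = 0.00332). The other RPL24 gene, AT3G53020 (STV1), whose mutant is known for a defect in reinitiation after upstream open reading frames, had 172 and 161 FPKM in WT, against 186 and 184 in the mutant and 183 and 149.6 in the complemented line, with *nerd-1* just above WT and a change of 0.15 ± 0.10 (SE; adjusted *p* = 0.245).

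RPS6 is the ribosomal target of the S6 kinases downstream of TOR. Of its 2 genes AT4G31700 had 309 and 287 FPKM in WT, against 228 and 225 in the mutant and 233 and 230.4 in the complemented line, a change of -0.39 ± 0.055 (SE; adjusted *p* = 0.00355), and AT5G10360 had 290.0 and 287 FPKM in WT, against 269 and 276 in the mutant and 268 and 251 in the complemented line, a change of -0.081 ± 0.054 (SE; adjusted *p* = 0.244) that turned to 0.027 under median scaling. These RPS6 genes are outside the rule by which named genes were chosen and were added after their values were seen. The remaining genes that fell changed by less than those of RPL23a and RPS13, and RPL28 AT4G29410 and the RPL9 pair were among them.

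**Figure D3:**
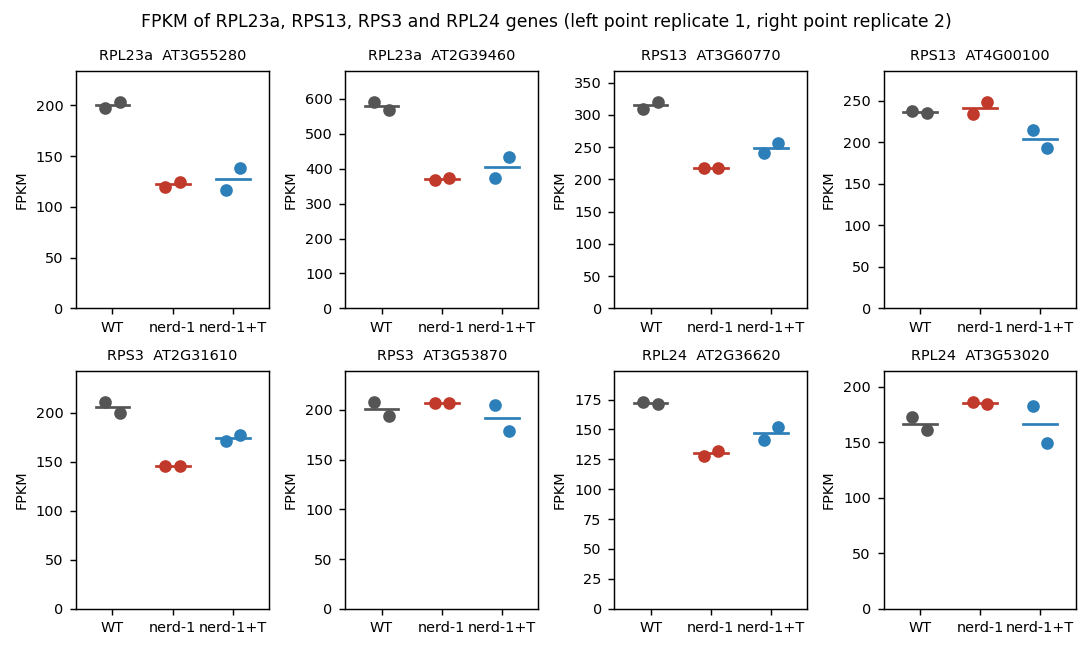
FPKM (vertical axes, from 0) of the RPL23a, RPS13 and RPL24 gene pairs and of RPS3 AT2G31610 and AT3G53870 in WT, *nerd-1* and *nerd-1*+T; points are libraries and bars are means of 2. In AT3G55280, AT2G39460, AT3G60770, AT2G31610 and AT2G36620 the *nerd-1* points lie below WT, while AT4G00100, AT3G53870 and AT3G53020 have *nerd-1* points that overlap or exceed WT.

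Whether paralogs of one protein moved together was examined over the 24 proteins with at least 2 tested genes. In *nerd-1* against WT all tested paralogs were called in one direction for 3 proteins (RPP1, RPL23a and RPL9, the last with genes that share much of their sequence), some but not all for 17, and none for 4 (RPL27a, RPP0 and RPS7 among them). No protein had a paralog that rose and another that fell. That a paralog was called and another was not does not show that they differ, and the difference between paralogs was not tested. For a single value, such as a share, 2 against 2 libraries cannot give a two-sided exact permutation *p* below 0.333. The share of each gene in the summed FPKM of its listed paralogs needs no scaling between libraries and is given as a description, for the 5 proteins in which it moved most without overlap between *nerd-1* and WT.

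For RPS10, AT5G52650 had 44.4% and 44.4% of the summed FPKM in WT, against 32.8% and 32.7% in the mutant and 35.1% and 44.9% in the complemented line. The largest RPS10 contributor in WT thus became second to AT5G41520 in *nerd-1*, and the *nerd-1*+T libraries split, the first near *nerd-1* and the second at the level of WT. For RPS13, AT3G60770 had 56.6% and 57.7% of the summed FPKM in WT, against 48.2% and 46.6% in the mutant and 52.9% and 57.1% in the complemented line. The RPS13 pair changed its order, AT4G00100 being the lower of both in WT and the higher in *nerd-1*. For RPL24, AT2G36620 had 50.1% and 51.4% of the summed FPKM in WT, against 40.7% and 41.7% in the mutant and 43.6% and 50.4% in the complemented line, so a pair that was even in WT was uneven in *nerd-1*.

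For RPP1, AT1G01100 had 48.3% and 48.0% of the summed FPKM in WT, against 56.3% and 57.2% in the mutant and 55.3% and 51.3% in the complemented line. Although all 3 RPP1 genes rose, this one took a larger share in both other genotypes than in WT. For RPS3, AT2G31610 had 37.4% and 37.3% of the summed FPKM in WT, against 29.9% and 30.0% in the mutant and 33.7% and 36.8% in the complemented line, and AT3G53870 took most of what it gave up. All 5 proteins have in common that *nerd-1*+T replicate 2 was closer to WT than replicate 1 was.

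**Figure D4:**
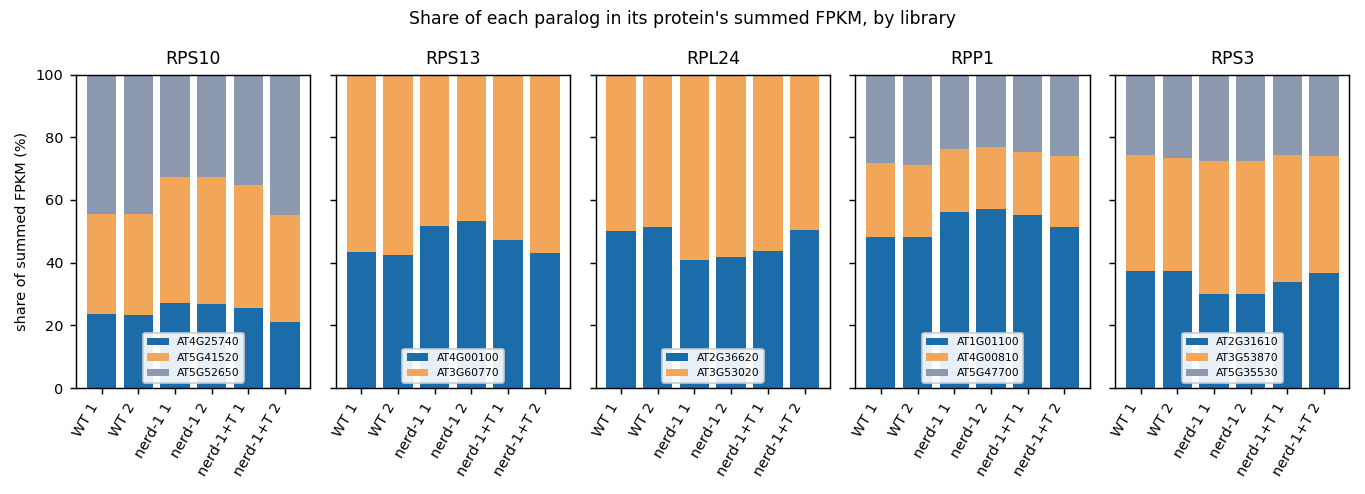
Stacked bars of the share (%) of each listed paralog in the summed FPKM of RPS10, RPS13, RPL24, RPP1 and RPS3 in the 6 libraries. The share of AT5G52650 in RPS10 is 44.4% in each WT library and 32.8% and 32.7% for *nerd-1*, and *nerd-1*+T replicate 2 resembles WT in most panels.

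The FPKM of the listed paralogs were also summed for each protein. The summed FPKM of RPL24 was 345 and 332 in WT and 314 and 316 in *nerd-1*, where AT2G36620 fell and AT3G53020 was not called. For RPP1 the sum was 273 and 247 in WT and 426 and 417 in *nerd-1*. For RPS10 it was 284 and 266 against 409 and 389.5, for RPS9 it was 297 and 292 against 453 and 464, and for RPL23a it was 789 and 769.9 against 488 and 496. On the deposited scale, the summed FPKM of RPP1, RPS10, RPS9, RPL23a and RPL24 therefore differed between *nerd-1* and WT without overlap of the libraries. For RPL24 the log2 change of the sum was only -0.10, beside a median of -0.11 over all tested features. The sums of single proteins were not computed under the other scalings. All of these sums are deposited mRNA levels and not amounts of protein. How often sums lack overlap over all features was not examined.

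The *nerd-1*+T line was compared with WT to see which levels return when tagged NERD is expressed. Of the 59 genes 1 rose and 26 fell, where 13.2% of all tested features were higher and 39.8% lower. The median change was -0.18 for the members and -0.18 for all features. All 59 lay within 0.5 log2 units of the latter median, beside 80.2% of all tested features. The only member that rose was RPL3 AT1G61580, with a change of 0.23 ± 0.046 (SE; adjusted *p* = 0.0108).

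Both RPL23a genes were again among the genes that fell most, with -0.66 ± 0.090 (SE; adjusted *p* = 0.00313) for AT3G55280 and -0.52 ± 0.084 (SE; adjusted *p* = 0.0053) for AT2G39460. The comparisons of *nerd-1* and of *nerd-1*+T with WT share the WT libraries. The minor paralog RPS9 AT5G39850 fell in *nerd-1*+T, with -0.52 ± 0.053 (SE; adjusted *p* = 0.00131), and was not called in *nerd-1*. Scaled to the same FPKM total, 1 member rose and 24 fell, beside 13.8% and 36.9% of all features. Scaled to the same median, which moved the median change of all features to -0.027, 1 member rose and 8 fell, beside 19.9% and 20.7% of all features. The 8 included both RPL23a genes, RPS13 AT3G60770, RPS6 AT4G31700 and RPS9 AT5G39850.

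None of the RPP1 and RPS10 genes was called in *nerd-1*+T against WT, nor was RPS9 AT5G15200. For AT1G01100 the change was 0.28 ± 0.17 (SE; adjusted *p* = 0.204), with a 95% interval from -0.14 to 0.70, which includes 0. The count of calls moved with the libraries: without *nerd-1*+T replicate 1 there were 1 higher and 48 lower, without *nerd-1*+T replicate 2 there were 7 higher and 31 lower, without WT replicate 1 or 2 there were 0 higher and 9 lower, and without *nerd-1* replicate 1 or 2 there were 1 higher and 16 lower. Of all features, 14.6% were higher and 43.5% lower without *nerd-1*+T replicate 1, 17.4% and 45.4% without *nerd-1*+T replicate 2, 8.72 to 8.78% and 20.4 to 21.6% without a WT library, and 11% and 31.1% without a *nerd-1* library.

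The *nerd-1* mutant was compared with *nerd-1*+T directly, as both carry the mutation. Here 20 members were higher in *nerd-1* and 3 lower, beside 24% and 14% of all tested features. The median change was 0.14, against 0.058 for all features. Scaled to the same FPKM total, 3 were higher and 13 lower, beside 11.7% and 28% of all features, whose median change was then -0.090, and scaled to the same median 9 were higher and 5 lower, beside 18% and 18.2%. RPS9 AT5G15200 and RPS9 AT5G39850 were higher in *nerd-1* under each of these scalings.

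The largest differences were in RPP1 AT1G01100, with 0.65 ± 0.17 (SE; adjusted *p* = 0.0313), and RPS9 AT5G15200, with 0.65 ± 0.15 (SE; adjusted *p* = 0.0247). The call of AT1G01100 was kept under median scaling but not under total scaling. RPL27a AT1G70600 had 202 and 187 FPKM in WT, against 236 and 228 in the mutant and 180.3 and 133 in the complemented line, a change of 0.58 ± 0.14 (SE; adjusted *p* = 0.0299) that was not called under total scaling. In this RPL27a gene the *nerd-1* libraries were highest, and both libraries of *nerd-1*+T were below those of WT. The RPS10 genes AT5G41520 and AT4G25740 were not called, with changes of 0.58 ± 0.20 and 0.64 ± 0.22 (SE; adjusted *p* = 0.0723 and 0.0705).

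The 3 genes lower in *nerd-1* than in *nerd-1*+T were RPL10 AT1G66580, with -0.33 ± 0.066 (SE; adjusted *p* = 0.0161), RPS3 AT2G31610, with -0.25 ± 0.051 (SE; adjusted *p* = 0.0166), and RPS13 AT3G60770, with -0.19 ± 0.054 (SE; adjusted *p* = 0.0425). These 3 kept their call under both scalings. RPS13 was the only protein with a paralog called in each direction, since AT4G00100 was higher in *nerd-1*, with 0.24 ± 0.069 (SE; adjusted *p* = 0.0413), a call not made under either scaling.

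The counts of this comparison ranged widely when a library was left out. Without *nerd-1* replicate 1 or 2 limma called 0 members (16 and 15 at an unadjusted *p* under 0.05), without WT replicate 1 or 2 there were 3 higher and 2 lower, without *nerd-1*+T replicate 1 there were 40 higher and 7 lower, and without *nerd-1*+T replicate 2 there were 21 higher and 5 lower. Of all features, 5.11 to 5.72% were higher and 3.72 to 3.85% lower without a *nerd-1* library, 15.8 to 15.9% and 9.29 to 9.3% without a WT library, 32.3% and 23.6% without *nerd-1*+T replicate 1, and 25.9% and 14.3% without *nerd-1*+T replicate 2. No called gene changed direction in these fits.

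The *nerd-1*+T libraries differed from each other in many of the members. All 10 members that rose in *nerd-1* were higher in *nerd-1*+T replicate 1 than in replicate 2, by 0.021 to 0.70 log2 units, with the maximum in RPS10 AT4G25740. Of the 17 members that fell in *nerd-1*, 13 were lower in replicate 1 than in replicate 2, the lowest value being -0.25 in RPL23a AT3G55280. Most members that were not called in *nerd-1* were also higher in replicate 1, namely 29 of 32, with a median difference of 0.17 beside 0.36 for the 10 that rose and -0.050 for the 17 that fell. Across the 59 genes, the change in *nerd-1* and the difference between the *nerd-1*+T replicates had Pearson's r of 0.87 and Spearman's rho of 0.82, which share no library. Genes of one library are not independent points, and no test was made. Over all 20249 tested features r was 0.31 and rho 0.53, and over the other cytosolic ribosomal protein genes r was 0.91 and rho 0.90 (149 genes).

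**Figure D5:**
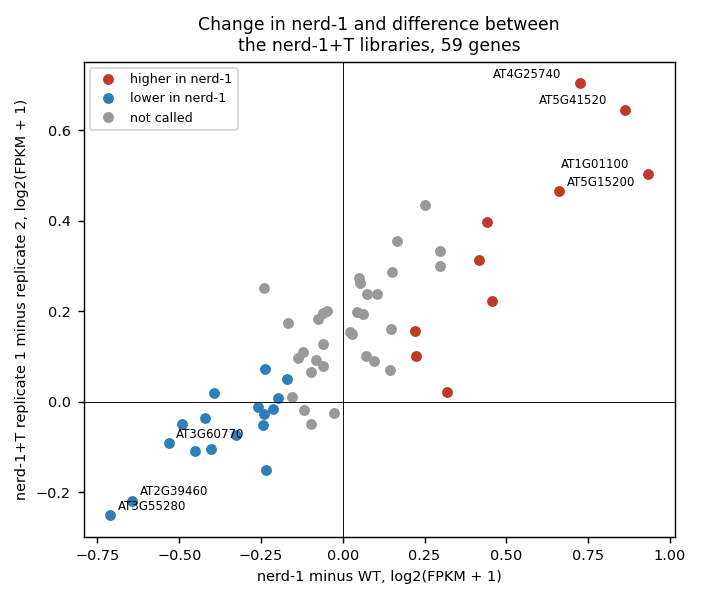
Scatter plot of the 59 tested members, with the log2(FPKM + 1) change of *nerd-1* against WT on the horizontal axis and the difference of *nerd-1*+T replicate 1 minus replicate 2 on the vertical axis. Red points rose and blue points fell in *nerd-1*; the red points lie at 0.021 to 0.70 on the vertical axis and most blue points lie below 0.

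A further 164 genes of cytosolic ribosomal proteins were listed beside the members, and 149 of them were tested. In *nerd-1* against WT 41 rose and 43 fell, beside 19.4% and 36.3% of all tested features, with a median change of 0.015. In *nerd-1*+T against WT 1 rose and 62 fell, beside 13.2% and 39.8% of all features, with a median of -0.20 (2 and 23 under median scaling, with a median of -0.039). In *nerd-1* against *nerd-1*+T 68 were higher and 10 lower, beside 24% and 14% of all features, with a median of 0.22. Under total scaling the splits for *nerd-1* were 23 and 64 against WT and 26 and 25 against *nerd-1*+T, and under median scaling 56 and 32 against WT and 42 and 13 against *nerd-1*+T. The wider family therefore had rises and falls in *nerd-1* side by side, as the 60 genes and all tested features did. The same shares of all features stand beside the gene lists that follow.

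Of 32 genes of plastid ribosomal proteins, 8 rose and 12 fell in *nerd-1* (4 and 19 under total scaling, 12 and 8 under median scaling), with a median of -0.033. In *nerd-1*+T 1 rose and 8 fell, with a median of -0.10, a split that was 7 and 1 under median scaling, and 4 were higher and 1 lower in *nerd-1* than in *nerd-1*+T (2 and 7 under total and 3 and 3 under median scaling). Of 10 tested translation factor genes, 3 rose and 1 fell in *nerd-1* (1 and 1 under total scaling), with a median of 0.15, 0 rose and 1 fell in *nerd-1*+T (1 and 1 under median scaling), and 2 were higher and 0 lower in *nerd-1* than in *nerd-1*+T (1 and 1 under total scaling, 1 and 0 under median scaling). Of 6 ribosome biogenesis genes, 2 rose and 3 fell in *nerd-1* (1 and 3 under total scaling, 2 and 1 under median scaling), with a median of -0.12, 0 rose and 3 fell in *nerd-1*+T, and 4 were higher and 0 lower in *nerd-1* than in *nerd-1*+T (1 and 1 under total scaling, 2 and 0 under median scaling).

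Of 4 genes of the TOR and S6 kinase pathway, 2 rose and 1 fell in *nerd-1* against WT (2 and 0 under median scaling), 1 rose and 0 fell in *nerd-1*+T, and limma called 0 between *nerd-1* and *nerd-1*+T (1 at an unadjusted *p* under 0.05; 1 was lower in *nerd-1* under total scaling). S6K2 (AT3G08720), a kinase of RPS6 named here after its values were seen, had 10.05 and 10.9 FPKM in WT, against 16.1 and 15.8 in the mutant and 15.1 and 16.1 in the complemented line, with changes of 0.56 and 0.53 (adjusted *p* = 0.00202 and 0.00197). The 2 comparisons share the WT libraries.

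Markers of dividing cells and of roots were examined because seedlings hold tissues that differ in ribosomal protein mRNA. All 10 dividing cell markers were detected in each library, and their summed level was 148 and 140.5 FPKM in WT, against 124 and 121 in the mutant and 110.2 and 117 in the complemented line. In *nerd-1* 1 of the 10 rose and 4 fell (0 and 5 under total scaling, 1 and 3 under median scaling), in *nerd-1*+T 0 rose and 8 fell (0 and 3 under median scaling), and 5 were higher and 0 lower in *nerd-1* than in *nerd-1*+T (3 and 2 under total scaling). The 6 root markers, none of them at 0, summed to 57.4 and 59.99 FPKM in WT, against 59.2 and 58.5 in the mutant and 47.7 and 43.9 in the complemented line. In *nerd-1* 1 rose and 1 fell (0 and 2 under total scaling), in *nerd-1*+T 0 rose and 4 fell (0 and 0 under median scaling), and 4 were higher and 0 lower in *nerd-1* than in *nerd-1*+T (1 and 1 under total scaling, 2 and 0 under median scaling). On the deposited scale both sums were lower in *nerd-1*+T than in WT, as was the sum of the 60 genes. Under median scaling the sum of the 60 genes was 11480.2 and 10559.9 in *nerd-1*+T, beside 11248 and 10898 in WT, so it was then not lower throughout. The part of these markers in the ribosomal protein results was not tested, and in whole seedlings fewer cells of a type and less RNA per cell cannot be told apart.

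Whether reads could be assigned to one paralog was checked on the annotated mRNA. Of the 60 genes, 58 share no stretch of 125 bases, the read length, with the mRNA of any other gene in TAIR10.1 (longest mRNA, exact match). The exceptions were the RPL9 genes AT1G33140 and AT1G33120, which share 50.3% and 49.4% of their windows with each other, so their separate values are uncertain. AT1G33140 had 133 and 130.4 FPKM in WT, against 112 and 111 in the mutant and 95.8 and 97.8 in the complemented line, and AT1G33120 had 73.7 and 77.2 FPKM in WT, against 65.8 and 68.0 in the mutant and 61.6 and 59.5 in the complemented line. The span of 16 of the 60 genes overlaps another annotated gene, for 13 of them on the opposite strand. On the opposite strand, RPP0 AT2G40010 is overlapped over 1185 bases by a long noncoding RNA gene and each RPL9 gene over 72 bases by a microRNA gene. Protein-coding genes on that strand overlap an RPL27a gene over 801 of its 815 bases, an RPL8 gene over 295 and an RPL18 gene over 256. They also overlap RPL3 AT1G61580 over 16 bases and RPL24 AT2G36620 over 23 bases. On the same strand, RPP0 AT3G09200 shares 100 bases with its neighbour, RPS2 AT2G41840 shares 7 and RPS13 AT4G00100 shares 2. RPL28 AT4G29410 is overlapped by 4 snoRNA genes over 85 to 95 bases each on its own strand and shares 63 bases with a gene on the opposite strand. The values of these genes depend on how reads of the overlap were shared between genes in the FPKM estimate, which is not given in the sources used here.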

How the data were processed

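Polyadenylated RNA of 6 libraries was sequenced as single reads of 125 bases. According to the submitters' notes and the study's methods, the authors removed organellar and ribosomal RNA reads with Bowtie2 2.3.4, mapped the remainder to TAIR10 with TopHat2 2.0.7 and estimated FPKM with Cufflinks 2.2.1, separately for each library. The deposited FPKM hold no counts, so a count model was not used, and an exact 0 can be a failed estimate. The library kit marks strand and TopHat2 was run with default parameters, while the Cufflinks settings for strand and multiply mapped reads are not given in the sources used here. The 4 entries without an identifier were left out.

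Log2(FPKM + 1) of the 20249 features that reached 1 FPKM in 2 or more libraries was fitted with limma 3.58.1 (R 4.3.3; mean-variance trend, 6 libraries in 1 fit, no block), with Benjamini-Hochberg adjustment over all features and a threshold of 0.05. Errors are standard errors of the fit. The scripts were tested on simulated data. The alternatives were scaling to the FPKM total or to a median factor, a pseudocount of 0.1, other filters, a replicate block, a fit of only the compared genotypes, no trend and leaving out each library. Names, positions and sequences come from TAIR10.1, in which all 60 genes were found, and the deposited values were built on TAIR10. Tables and figures were made in Python 3.11.15 with pandas 2.3.3 and matplotlib 3.10.9.

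Named among the members, apart from those not reported here by name, were the 10 with the largest change from the median of all features in *nerd-1* against WT and the 5 in each other comparison (called, without overlap of the genotypes), the 3 highest and 3 lowest, the genes of the 5 proteins whose shares moved most, and any gene called against the majority, and outside them NERD. Other genes were named after their values were seen. The members and lists were chosen with earlier results of these data known. All 60 genes enter the counts.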

Additional observations from a re-analysis of the deposited data

How the results depend on the processing

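The number of reads behind each FPKM is not given, so precision was taken from the spread between 2 libraries per genotype. The number of members called in *nerd-1* against WT, 27, became 43 when only these 2 genotypes were fitted. Over all tested features the number went from 11275 of 20249 to 13686 of 20054. In *nerd-1*+T against WT the number, 27, became 9 under median scaling and 17 when only the compared genotypes were fitted. Over all features it went from 10744 of 20249 to 8220 of 20239 and 8573 of 19943. In *nerd-1* against *nerd-1*+T the number, 23, became 16 under total scaling and 14 under median scaling. It became 10 without a filter and 5 when only the 2 genotypes were fitted. Over all features the number, 7684 of 20249, became 8043 of 20244, 7324 of 20239, 6366 of 28121 and 5169 of 19832 in the same order. The causes were not tested. Leaving out 1 library gave 10 to 42 calls in *nerd-1* against WT, 9 to 49 in *nerd-1*+T against WT and 0 to 47 in *nerd-1* against *nerd-1*+T, with fewer libraries in each of these fits and the lone library of a genotype assumed to vary like the others. With a pseudocount of 0.1, the stricter filter (1 FPKM or more in all libraries), the replicate block or no trend, each number stayed within 1.5 times its value.

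Replicate numbers are shared between the genotypes in the labels. Deviations from the genotype means, paired by number over all tested features, had correlations of 0.049 for WT and *nerd-1*, 0.088 for WT and *nerd-1*+T and -0.00071 for *nerd-1* and *nerd-1*+T. Of the 59 tested members, replicate 1 was higher than replicate 2 in 43 for WT, 26 for *nerd-1* and 43 for *nerd-1*+T. Of all 20249 tested features these counts were 9690, 9295 and 9566. Whether libraries of the same number were prepared together is not given in the labels and was not tested. With the replicate block 25, 25 and 20 members were called in *nerd-1* against WT, *nerd-1*+T against WT and *nerd-1* against *nerd-1*+T. Of all 20249 tested features 10713, 10187 and 6763 were called with that block.

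Of the members named, 7 that were not called in *nerd-1* against WT changed sign. Under total scaling this was RPL3 AT1G43170 to -0.047, RPP0 AT2G40010 to -0.057, RPP0 AT3G09200 to -0.098, RPS3 AT3G53870 to -0.11, RPS13 AT4G00100 to -0.12 and RPS10 AT5G52650 to -0.053, and under median scaling RPS6 AT5G10360 to 0.027. RPS13 AT4G00100 also changed sign without *nerd-1* replicate 2, to -0.017, and RPS3 AT3G53870 without WT replicate 2, to -0.0081. With 1 library left out, the change of AT4G00100 ranged from -0.017 to 0.074 and that of AT3G53870 from -0.0081 to 0.095. Among the comparisons in which a named member was called, and in *nerd-1* against WT for all of them, no other sign change occurred in the settings tried.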
